A study of Caenorhabditis elegans with 4 samples.

Results

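The central part of Caenorhabditis elegans chromosome V carried 462 of the 7283 REC-8 binding regions in the series-level peak list, 6.34% of the whole list and 41.6% of the 1110 regions on that chromosome. A region belonged to the centre when its midpoint lay above 6950000 and at most at 13900000 on V in WormBase build WS220, a stretch of 6.95 Mb. Position alone chose the regions, so their scores, widths and overlap with the replicates were not used in choosing them. ChIP-seq, which sequences the DNA recovered with an antibody, mapped REC-8 in adult hermaphrodites of strain fem-2(b245), genotype fem-2(b245)III, raised at 20 °C and containing a germline. The labels give the stage as young adult, whereas the growth protocol speaks of gravid animals. All 4 libraries shared that strain, stage and temperature, and their chromatin was crosslinked in EGS for 20 min and then in EGS and formaldehyde for 10 min. They were 2 ChIP libraries made with the affinity-purified rabbit antibody REC-8 SDQ3953 and 2 input libraries, for which no peak list was used here. Each ChIP library had 1 peak list of its own, and the labels do not state whether separate cultures were used, so differences between replicates may be technical.

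REC-8 is the kleisin subunit of a cohesin complex that works in meiosis. It closes the cohesin ring around sister chromatids, holds them together through prophase and is removed in steps as homologues and then sisters part. C. elegans chromosomes are holocentric, which means that they have no single centromere and attach to the spindle along their length. On the autosomes a gene-dense centre with few meiotic crossovers lies between arms that are richer in repeats and crossovers. FEM-2 is a protein phosphatase needed for male fate, and its loss feminises the germline. Extracts came from whole adults, so binding in germ cells and in other cells of the animal cannot be told apart in these lists.

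REC-8 regions in the centre of V, like those of the whole list, were mostly short and weak, with a small group of strong ones. The median series-level score was 7.44 (quartiles 5.02 and 14.6), and scores ran from 1.3 to 174.3. This score is the authors' own value for each peak, and its scale is not stated. The median width was 284.5 bp (quartiles 195.75 and 462 bp), with a range from 146 to 6149 bp. Over the whole list the median score was 7.86 and the median width 293 bp. Together the 462 regions covered 207.1 kb, or 2.98% of the stretch. The 90th percentile of the score was 31.3, and 26 regions (5.63%, 95% Wilson interval 3.87 to 8.12%) scored 50 or more. Over the whole list 8.18% of regions reached that score, a limit chosen after the values were seen.

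Support by the replicates divided the regions into 4 classes. A peak of both replicates overlapped 127 of the 462 regions by 1 bp or more (27.5%, Wilson interval 23.6 to 31.7%), against 29.1% over the whole list. A further 104 regions met a peak of replicate 2 alone (22.5%, interval 18.9 to 26.5%, 18.6% over the whole list). Replicate 1 alone accounted for 39 regions (8.44%, interval 6.24 to 11.3%, 7.65% over the whole list). The remaining 192 met no peak of either replicate (41.6%, interval 37.2 to 46.1%, 44.6% over the whole list). These shares lay near those of the whole list, apart from the larger share with replicate 2 alone. The intervals cover counting error only, and neighbouring regions are not independent of each other.

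Strong regions were the ones that both replicates listed. The median score was 21.5 for regions found in both replicates, 8.27 for replicate 1 alone, 8.18 for replicate 2 alone and 5.0 for those found in neither. All 26 regions with a score of 50 or more met peaks of both replicates, as did 595 of 596 over the whole list (99.8%). At scores from 20 to 50, 44 of 48 regions met both (91.7%), against 91.3% over the whole list. This relation was thus not particular to the centre of V. The highest score among its regions found in neither was 12.04. The classes overlapped at lower scores, since the weakest region found in both had a score of 3.81. In 4 groups of nearly equal size by score, 1 of the 117 lowest-scoring regions met both replicates (0.855%), then 2 of 115 (1.74%), 24 of 114 (21.1%) and 100 of 116 in the highest group (86.2%). That group began at a score of 14.63 and held no region found in neither replicate. Support by replicate 2 alone was most frequent in the third group, with 47 of 114 regions (41.2%). The 3 lists belong to 1 series with 2 ChIP libraries, and whether the series-level list pooled them was not stated. The lists cannot be taken as independent, and this relation was therefore described and not tested.

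**Figure D1:**
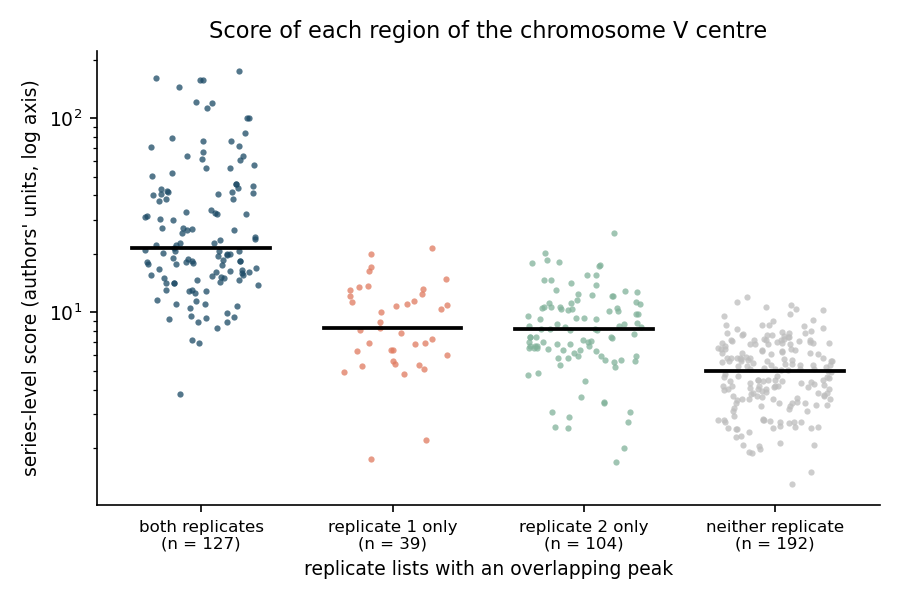
Series-level score of each of the 462 regions in the chromosome V centre (log axis, authors' units), grouped by the replicate lists that hold an overlapping peak; each point is a region and the black line the class median. Regions found in both replicates have a median of 21.5 and reach 174.3, while those found in neither stay at or below 12.04.

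The 10 highest-scoring regions were listed by both replicates, and none of them was among the 5 widest. The highest, V:7719246-7721144, was 1899 bp wide and scored 174.3, rank 20 of the whole list. It scored 3114.2 in replicate 1 and 2286.42 in replicate 2. The second, V:13881995-13882726, was 732 bp wide, with 160.78 in the series-level list, 1584.45 in replicate 1 and 1598.7 in replicate 2. It lay close to the right bound of the centre. V:9601401-9603303 followed with 158.14 and a score of 3100 in each replicate, a value at which other strong peaks of these lists also stood. V:8316017-8316727, 711 bp wide, had 157.8, and the replicates gave it 3084.24 and 2323.64. Both of the next regions lay in a single stretch, V:7912854-7914411 with 144.08 and V:7915666-7916689 with 121.7. The series-level scores of the remaining regions of the 10 were 119.69 at V:9439057-9440159, 112.35 at V:7775950-7776827, 100.81 at V:10965467-10965879 and 100.33 at V:10897127-10897550. The last pair were short, at 413 and 424 bp. Of these 10 regions, 7 met one of the 10 highest replicate 1 peaks that overlapped regions of the centre, and 8 met one of the 10 highest such peaks of replicate 2.

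Broad regions had a higher median score than all regions of the centre, but the 5 widest were not among the 10 highest-scoring. A width of 1000 bp or more was found for 35 regions (7.58%, Wilson interval 5.50 to 10.4%, 5.57% over the whole list), and these held 32.5% of all bases covered. Of the 35, 29 met both replicates, 5 met replicate 1 alone and 1 met replicate 2 alone. Their median score was 21.5, against 7.44 for all 462 regions, and 8 of them scored 50 or more, against 26 of all 462. The widest, V:9338498-9344646, spanned 6149 bp and had a series-level score of 71.17, rank 371, although each replicate gave it 3100 as 1 peak of 6225 bp in replicate 1 and of 6175 bp in replicate 2. The second, V:13653525-13658937 with 5413 bp, scored 33.77 in the series-level list. There replicate 1 had a single peak of 5370 bp with a score of 3198.41, and replicate 2 had 5 peaks, the highest at 801.68. V:7430832-7434565 (3734 bp) scored 40.96, with 2876.87 in replicate 1 and 645.97 in replicate 2. V:10714745-10717592 (2848 bp) scored 45.99, with 1122.66 and 777.79. The fifth, V:11819413-11822100 (2688 bp), scored only 8.27 and met a peak of replicate 1 alone, of 4671 bp and score 1559.97. None of the 5 was thus among the 10 highest by series-level score, whereas 3 of them had replicate 1 scores of 2876.87 or more.

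Across all 462 regions wider ones had higher scores (Spearman's rho 0.598, Pearson's r 0.369). Within the 127 regions found in both replicates, the relation was weak (rho 0.0708, r 0.163). Both values describe regions of 1 list and share its libraries and peak caller.

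**Figure D2:**
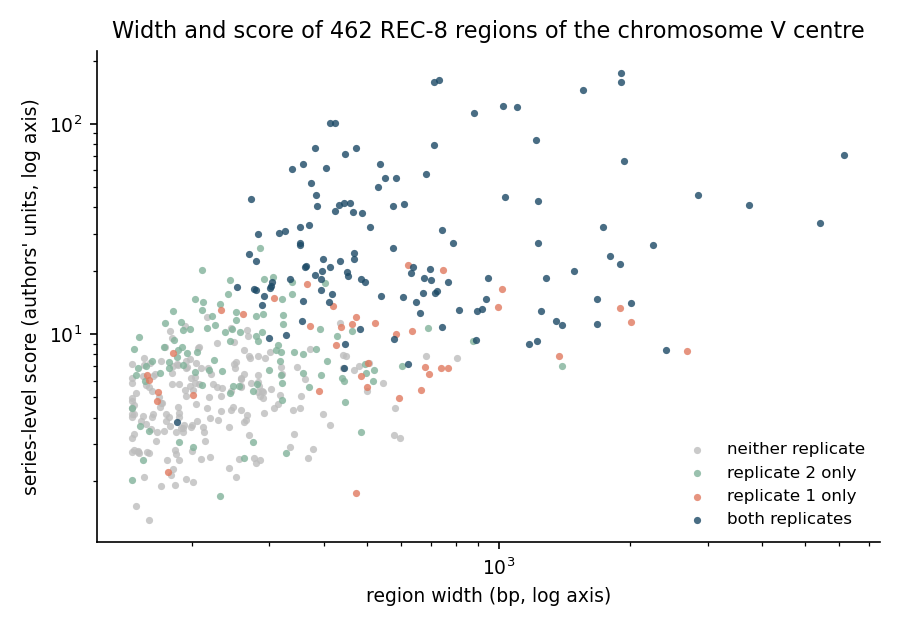
Width (bp, log axis) against series-level score (authors' units, log axis) for the 462 regions, coloured by replicate support. Regions found in neither replicate crowd at the narrow, low-scoring corner, and the widest region, at 6149 bp, has a score of 71.17 and lies below the 10 highest.

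The replicates ranked the regions of V in a similar but not identical order. Over the 127 regions found in both, the highest overlapping peaks had a median score of 192 in replicate 1 (51.19 to 3198.41) and 248 in replicate 2 (50.39 to 3100). Their scores correlated with rho 0.585 and r 0.786. Without the 6 regions at 3000 or more in either replicate, 121 remained, with rho 0.522 and r 0.524. Series-level scores followed replicate 2 (rho 0.698 over 231 regions) more closely than replicate 1 (rho 0.367 over 166 regions). The latter value rose to 0.600 over 154 regions once the 12 regions under a single broad replicate 1 peak were left out. These are descriptions across regions of 1 pair of libraries, and some regions share a replicate peak.

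**Figure D3:**
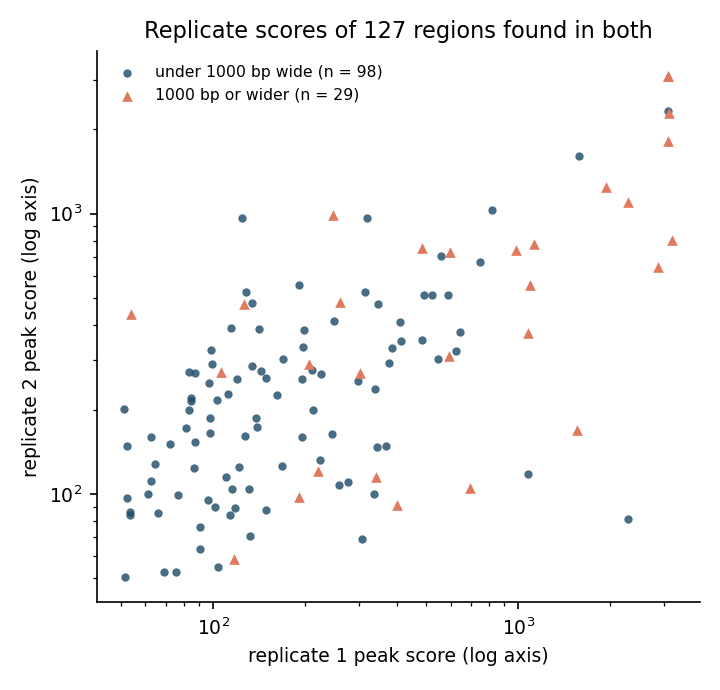
Highest overlapping peak score in replicate 1 against that in replicate 2 (both log axes, authors' units) for the 127 regions found in both; triangles mark the 29 regions of 1000 bp or more. Scores rise together (rho 0.585), with wide scatter at low scores.

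That broad replicate 1 peak, V:7916826-7925045, had a score of 1426.77. At 8220 bp it was the widest replicate 1 peak on chromosome V. The series-level list divided the stretch into 12 regions, 159 to 2004 bp wide and 46 to 182 bp apart, which covered 84.5% of the peak. Their series-level scores were low, from 2.2 to 12.38 with a median of 6.24. None of the 12 met a replicate 2 peak. Replicate 2 listed V:7913225-7914537 (score 1819.45) to the left of the stretch and V:7915596-7916848 (1248.5), which reached over the left end of the broad peak. These met the pair of strong regions named above. The 12 regions made up a large part of the 39 found in replicate 1 alone, and without them 27 of 450 were left (6.0%, Wilson interval 4.16 to 8.59%). Few replicate peaks met more than 1 region, 6 in replicate 1, this one included, and 8 in replicate 2.

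Regions found in 1 replicate were weaker, and their widths differed by replicate. The median width was 485 bp for replicate 1 alone and 251 bp for replicate 2 alone, against 535 bp for both and 206.5 bp for neither. The highest-scoring with replicate 1 alone were V:10953359-10953979 (series-level score 21.34), V:13048963-13049709 (20.07) and V:7587620-7587985 (17.19), whose replicate 1 peaks scored 256.55, 139.48 and 130.89. With replicate 2 alone they were V:9212526-9212811 (25.71), V:10894639-10894848 (20.1) and V:11239199-11239504 (18.61), whose replicate 2 peaks scored 181.73, 97.3 and 115.24. In each replicate, these scores were below those of the 10 highest regions in the same list. The highest-scoring regions found in neither were V:11279577-11279792 (12.04), V:11885827-11886261 (11.28), V:11521494-11521685 (10.89), V:13256719-13256963 (10.7) and V:12245787-12246053 (10.42), all under 500 bp wide. Both replicate lists end near a score of 50, and weaker enrichment below that end is not shown by them.

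Seen from the replicate lists, nearly all peaks in the centre of V were on the series-level list. Of the 163 peaks of replicate 1, whose median width was 518 bp, 160 overlapped a series-level region (98.2%). Of the 262 peaks of replicate 2, whose median width was 378 bp, 250 did (95.4%). In the left and right arms of V the shares were 98.4% and 91.1% for replicate 1 and 97.6% and 91.7% for replicate 2. Of the replicate 1 peaks, 133 met a replicate 2 peak (81.6%, Wilson interval 74.9 to 86.8%), and of the replicate 2 peaks, 148 met a replicate 1 peak (56.5%, interval 50.4 to 62.4%). The left and right arms had 73.4% and 71.0% for replicate 1, below the centre. For replicate 2 they had 63.4% and 69.0%, above the centre. The intervals of the arms overlapped those of the centre. In spite of unequal peak numbers, both lists covered almost the same length in the centre, 125.6 kb in replicate 1 and 126.4 kb in replicate 2.

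Regions were unevenly spread along the centre. In 14 equal bins of 496.4 kb, the number of regions ran from 19 to 53 with a median of 34. The densest bin, V 10425001 to 10921428, held 53 regions, of which 11 met both replicates and 26 met neither. It was followed by V 11417858 to 11914285 with 44 regions and V 8935715 to 9432142 with 39. The sparsest were the leftmost bin, V 6950001 to 7446428, with 19, V 9432143 to 9928571 with 21 and V 12907143 to 13403571 with 25. Across the 14 bins, the number of regions and the median score were weakly related (rho -0.14, r -0.21). The densest bin reached a score of 100.33, against a median of 80.2 for the maxima of the bins. The bin of 44 reached a score of only 26.55, the lowest maximum of the 14, while the bin of 21 held V:9601401-9603303 and had the highest median score, 11.2. The number of regions found in both replicates ran from 2 to 14 per bin and was highest in the rightmost bin. Replicate 1 had 4 peaks and replicate 2 had 18 in the bin V 8439286 to 8935714, where 13 of the 26 regions met replicate 2 alone and none met replicate 1 alone.

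**Figure D4:**
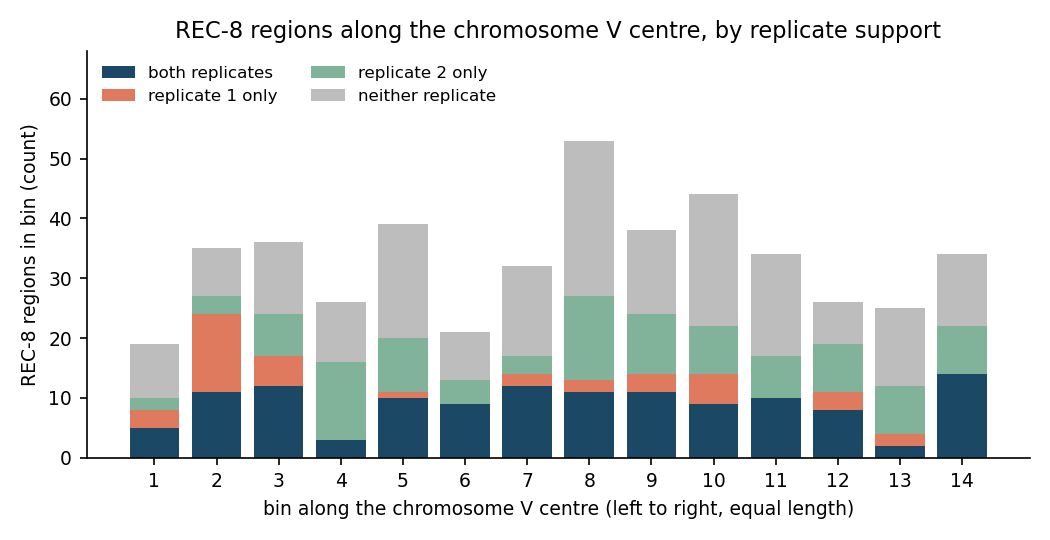
Number of REC-8 regions in each of 14 equal bins of 496.4 kb from left to right along the chromosome V centre, stacked by replicate support. Bin 8 has 53 regions and bin 1 has 19; 12 of the 13 regions found in replicate 1 alone in bin 2 lie under a single broad replicate 1 peak.

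Spacing between neighbouring regions was short in most places and long in a few. The median distance between midpoints was 3706.5 bp (quartiles 1210.5 and 20265 bp), and the mean, 14985 bp, was several times larger. Medians were 4495.5 and 6128 bp in the left and right arms of V and 3719.5 to 6172.5 bp in the centres of the other chromosomes. A neighbour lay within 5 kb for 336 of the 462 regions (72.7%, Wilson interval 68.5 to 76.6%). This share was near the 71.2% and 66.8% of the left and right arms and within the range of the other centres, 62.6 to 76.7%. Linking regions at that distance gave 126 single regions, 73 runs of 2 to 4 and 18 runs of 5 or more, which held 144 regions. The longest run had 16 regions within 11997 bp, from V 10466521 to 10478517, in the densest bin. Its strongest region, V:10466521-10466952, scored 40.92 and its weakest 1.69, and only 3 of the 16 met both replicates. The second-longest run, of 14 regions, was the stretch around the broad replicate 1 peak. The share found in both replicates was 25.4% for single regions, 28.6% in runs of 2 to 4 and 27.8% in longer runs, and the share found in neither was 46.8%, 40.1% and 38.9%. The median scores were 8.29, 7.66 and 7.0 in the same order, and the 90th percentiles were 28.6, 40.7 and 23.4. The longest gap between regions, V 7237467 to 7413470, measured 176.0 kb and contained 1 replicate 2 peak and no replicate 1 peak. Gaps of 131.7 kb (V 12819411 to 12951158) and 130.9 kb (V 7587986 to 7718875) came next, and on the right of the latter V:7718876-7719021 (score 4.02, found in neither replicate) was followed by the highest-scoring region of the centre. A total of 62 gaps were under 200 bp. When such neighbours were joined, 400 regions remained and the median distance was 6516.5 bp. Joined in the same way, the other centres had medians from 5283.5 to 8013.5 bp.

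At the bounds set by the rule, the first region inside was V:6984569-6985042 with a score of 76.31, and the nearest outside on the left was V:6942497-6942746 with 2.03. On the right, V:13892697-13893007 with 8.36 was the last inside and V:13906209-13906453 with 8.89 the nearest outside.

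REC-8 regions were more frequent in the centre of V than in its arms in all 3 lists, but this did not hold for strong series-level regions. The series-level list had 66.5 regions per Mb in the centre, 49.5 in the left arm and 43.8 in the right arm, a ratio of 1.43 to both arms together. The corresponding ratio was 1.31 in replicate 1 (23.5 against 17.8 peaks per Mb) and 1.70 in replicate 2 (37.7 against 22.2). With 2 replicates, a two-sided exact sign-flip test cannot give a p below 0.5, and none was made. Joined at 200 bp, the densities were 57.6, 42.3 and 37.4 per Mb. The centre and each arm were of nearly equal length. Scores of 50 or more were reached by 26 regions in the centre, 32 in the left arm and 22 in the right arm. Scores of 100 or more were reached by 10, 12 and 7. At scores from 5 to 10 the centre held 172 regions over 6.95 Mb, and both arms together 214 over 13.9 Mb. Each of the 6 chromosomes was divided into 3 equal segments for comparison. Among the centres of the other 5 chromosomes, only that of X was sparser, with 56.6 regions per Mb, and those of IV, II, I and III had 75.97, 86.5, 99.7 and 111.0. A centre denser than both outer segments was not particular to V. It was also found on I, II, III and IV, by small margins over 1 outer segment on II (84.9) and IV (74.6). On X the centre was sparser than both outer segments (61.0 and 69.4).

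The 90th percentile of the score was low in the centre of V, whereas the share of very high scores lay within the range of the other centres. The 90th percentile, 31.3, was below that of each of the other 17 chromosome segments, which ran from 32.3 in the centre of X to 72.5 in the right segment of IV. The left and right arms of V stood at 46.9 and 35.3. A percentile also depends on how many weak regions a part holds. By number, regions of 50 or more in the centre of V lay between those of its arms. Joining neighbours at 200 bp gave 37.5 for the centre of V and 36.2 for that of X, so this order did not hold between them. A score of 100 or more was reached by 10 regions in the centre of V (2.16%, Wilson interval 1.18 to 3.94%). That share was below the 2.87% of the whole list and the 3.49% and 2.30% of the left and right arms. In the other centres it ran from 1.40 to 2.99%, and only X was above V. Regions found in both replicates had a median score of 21.5 in the centre of V, against 32.1 in its left arm, 23.3 in its right arm and 23.8 to 35.5 in the centres of the other 5 chromosomes. Median peak scores were the lowest of all segments in each replicate too, with 139 in replicate 1 (140 to 216 elsewhere) and 113 in replicate 2 (139 to 195 elsewhere). The margin in replicate 1 was small, and its 90th percentile, 807, was above that of all 5 other centres (637 to 771). In replicate 2 the 90th percentile, 484, was again the lowest (497 to 1129 elsewhere).

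The share of regions found in replicate 2 alone was higher in the centre of V than in its arms. It was 22.5% in the centre (Wilson interval 18.9 to 26.5%), 16.9% in the left arm (Wilson interval 13.3 to 21.2%) and 10.9% in the right arm (7.83 to 14.9%), and the intervals of the centre and the left arm overlapped. In the centres of the other chromosomes it ran from 20.7% to 25.1%, so the value of V lay among them. On each of the 6 chromosomes the centre exceeded both outer segments in this share. The number of replicate 2 peaks for each replicate 1 peak was also higher in the centre than in both outer segments on all 6 chromosomes, and on V it was 1.61 in the centre, 1.32 in the left arm and 1.17 in the right arm. Set beside regions of like score, the difference within V was seen below 10 but not above. At scores from 5 to 10, replicate 2 alone met 55 of 172 regions in the centre (32.0%) and 40 of 214 in the arms (18.7%), and at scores from 10 to 20 it met 33 of 101 (32.7%) and 36 of 111 (32.4%). Conversely, replicate 1 alone met 8.44% of the regions in the centre of V, 11.3% and 10.9% in its arms and 4.19 to 6.27% in the other centres. Without the 12 regions under the broad replicate 1 peak, the share in the centre of V was 6.0%, within the range of the other centres. No stretch was left out of the other parts, so this is not a like comparison. In the left and right arms, single replicate 1 peaks met up to 8 and 6 regions. The read depth of the replicates is unknown.

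**Figure D5:**
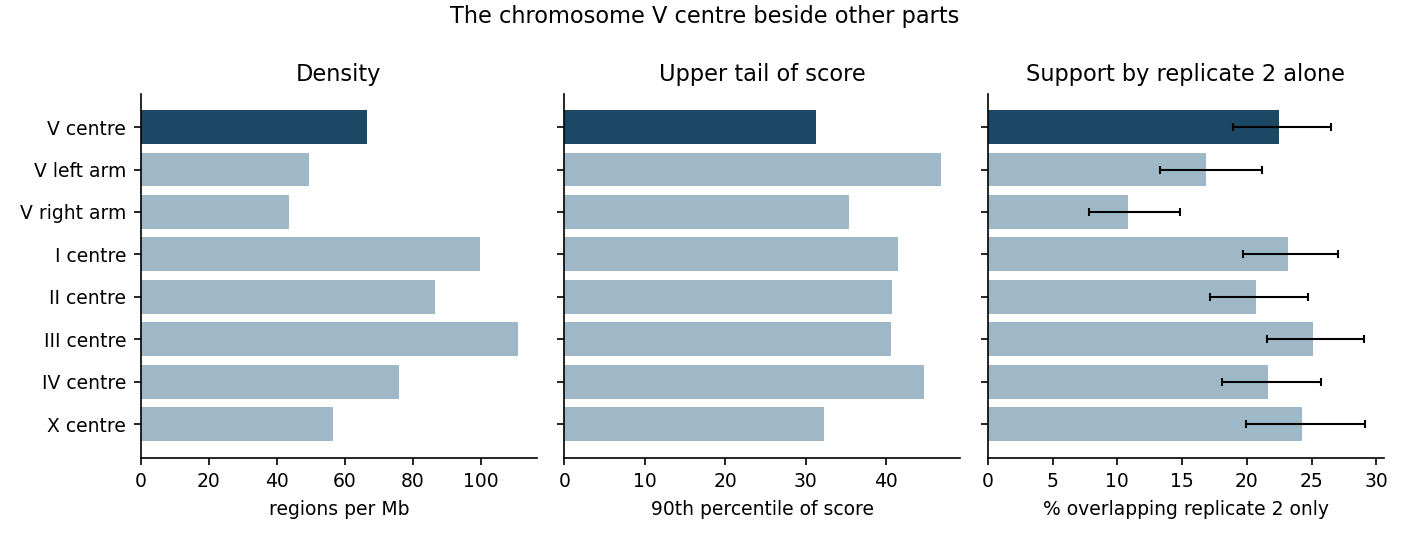
Regions per Mb, 90th percentile of the series-level score (authors' units) and percentage of regions found in replicate 2 alone (bars with 95% Wilson intervals) for the chromosome V centre, the V arms and the centres of the other chromosomes. The centre of V has 66.5 regions per Mb, a 90th percentile of 31.3 and a share of 22.5%.

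Broad regions were about as frequent in the centre of V as in its arms, 7.58% against 7.27% and 7.89%, and the centres of the other chromosomes had 4.09 to 6.09%. With neighbours joined, the share was 10.8% in the centre of V and 6.36 to 8.21% in the others, so the order stayed. The Wilson interval of V, 5.50 to 10.4%, overlapped those of the other centres, of which the highest, IV, had 4.22 to 8.72%. Median widths differed little, with 284.5 bp in the centre of V, 278 and 302 bp in its arms and 283 to 301 bp in the other centres. No test compared these parts, because there is 1 series-level list and regions of a list are not replicates.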

How the data were processed

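Peak lists were used as the authors deposited them, 1 for each REC-8 ChIP library and 1 for the series. Per the submitters' processing notes, BWA and build ce10 were used for the reads. Per the file headers, coordinates are in WormBase WS220, and they are counted from 1. The source column names MACS for the replicate lists and MACS v2 for the series-level list, and its settings and any pooling of libraries were not given in the sources used here. Each peak has a score that the authors deposited, whose scale is not stated. Parts of the genome were compared within a list. Scores of different lists were also correlated and set side by side, but whether their scales are alike is unknown. The depth of the libraries is unknown. Regions were matched to replicate peaks by an overlap of 1 bp or more, taking the highest score where several peaks met. The 3 equal segments of each other chromosome were measured to the last peak end in any list. Shares have 95% Wilson intervals. The overlap and spacing steps were tested on 20 simulated sets. Regions were named by a fixed rule: the 10 highest, the 5 widest, the highest by support class, the extreme bins, gaps and runs, and the bounds. That rule, the members and the comparisons were chosen with earlier results of these data known. Score bands, joined regions by part, replicate scores by part and the set without 12 regions were chosen after the values were seen. Sequence and neighbouring genes were not analysed here. Python 3.11.15, numpy 2.4.6, pandas 2.3.3, scipy 1.17.1 and matplotlib 3.10.9 were used.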

Additional observations from a re-analysis of the deposited data

How the results depend on the processing

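Of 49 recomputed values for the centre of V, 32 stayed within their interval or within 1.5 times the density, and 17 moved. With the upper 50% of the series-level list, 31.2 regions per Mb remained, with a median score of 15.15, a median width of 403 bp, a median spacing of 16249 bp, 57.1% found in both replicates, 8.29% in neither and 52.1% with a neighbour within 5 kb. Joining regions closer than 200 bp gave a spacing of 6516.5 bp and 66.25% with a neighbour. With the upper 50% of each replicate list, 11.0% met both replicates and 71.0% neither. Leaving out 1 replicate gave 35.9% to 50% with support and 50% to 64.1% without. A neighbour was found for 51.9% within 2 kb and for 93.1% within 20 kb. These shifts follow from fewer regions, peaks or lists, or from another distance. Bounds moved inward by 500 kb, the middle of 3 measured segments, an overlap of 50%, peaks within 200 bp and spacing from end to start moved none. Leaving out the 12 regions under the broad replicate 1 peak, an alternative added after the values were seen, moved none of the values recomputed for it either. Other values did depend on those regions. Without them the share with replicate 1 alone fell from 8.44% (interval 6.24 to 11.3%) to 6.0%, outside its interval. The rho of series-level and replicate 1 scores rose from 0.367 to 0.600. No paired analysis was possible because only the ChIP libraries had lists, with 1 list for each replicate. Lists end at a minimum score, and unknown depth limits what the absence of a replicate peak shows.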
